A study of Mus musculus with 42 samples.

Results

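Serpina1a, Serpina1b, Serpina1c, Serpina1d, Serpina1e, Serpina3k, Serpina3m, Serpina3n, Serpina6 and Serpina12 are neighbouring serpin genes on mouse chromosome 12. They were chosen by name and are not all the serpins of this clade that the liver expresses. They are 10 of the 54446 genes in the count table. Liver RNA came from 42 female APOE*3-Leiden mice, which carry a human APOE variant and clear lipoprotein remnants slowly, and all 3 groups carry this transgene. The 10 mice labelled Chow32w stayed on maintenance chow (chow) as the healthy reference. The 16 mice labelled WTD32w ate a Western-type diet (WTD) with 1% cholesterol, 15% cocoa butter and 40.5% sucrose, to which 0.05% sodium cholate was added from week 22. The 16 mice labelled WTD&Atorvastatin32w ate the same diet, cholate included, with atorvastatin mixed in (WTD + atorvastatin) at 3.0 mg/kg/day and from week 5 at 4.5 mg/kg/day. Both WTD groups had a run-in of 3 weeks on WTD from an age of 8 to 14 weeks, and livers were taken at week 32. Each library is 1 mouse. The labels do not give cages, and chow-fed mice carry another label prefix (AZ) than all WTD-fed mice (Gen), so that anything this prefix marks cannot be told apart from the diet.

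Serpins are proteins that block serine proteases by offering a flexible loop near their C-terminal end, the reactive centre loop, as bait. The Serpina1 genes encode alpha-1-antitrypsin, the main plasma inhibitor of neutrophil elastase, which hepatocytes secrete in large amounts; humans have a single such gene, whereas mice have several near-identical copies. Serpina3k, Serpina3m and Serpina3n belong to the antichymotrypsin group, and Serpina3n is a known acute-phase gene. Serpina6 encodes corticosteroid-binding globulin, the carrier of glucocorticoids in blood, and Serpina12 encodes vaspin, described first as an adipose tissue serpin.

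Because the Serpina1 copies are so alike, their sequences decide which reads can be assigned. In coding sequence the 5 copies are between 96.3% (Serpina1b with Serpina1e and Serpina1d with Serpina1e) and 98.5% (Serpina1a with Serpina1c) identical, over 1242 compared bases. Of these, 86 positions (6.92%) differ among the copies. The 60 bases with the most differences hold 18 of them (30.0% of the positions) and start at 88.6% of the coding sequence of Serpina1b, Serpina1c, Serpina1d and Serpina1e, toward the C-terminal end that carries the bait loop. They are shown, from GENCODE vM21 transcripts and 5′ to 3′, as the stretch that best separates the copies, with the positions that differ among the 5 in capitals.
Serpina1a: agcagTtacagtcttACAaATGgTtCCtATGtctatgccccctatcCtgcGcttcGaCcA
Serpina1b: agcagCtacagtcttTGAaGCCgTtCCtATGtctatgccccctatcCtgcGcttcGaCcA
Serpina1c: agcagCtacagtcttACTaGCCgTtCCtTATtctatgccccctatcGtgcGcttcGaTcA
Serpina1d: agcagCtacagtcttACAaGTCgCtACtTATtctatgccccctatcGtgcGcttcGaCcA
Serpina1e: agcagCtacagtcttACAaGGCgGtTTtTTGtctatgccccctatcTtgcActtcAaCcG
Elsewhere the copies share long runs. Of all 150-base windows, the length of 1 read, 50.5% of the Serpina1c transcript and 40.7% of Serpina1a also occur in a transcript of another gene, against 23.3% for Serpina1d, 16.4% for Serpina1b and 7.57% for Serpina1e. For windows of 300 bases, the length of both reads of a pair, the shares were 43.5% for Serpina1c, 33.8% for Serpina1a, 9.22% for Serpina1d, 7.79% for Serpina1b and 0% for Serpina1e. Serpina3k and Serpina3m share under 1% of theirs (0.262% and 0.331%), and none was found elsewhere for Serpina3n, Serpina6 and Serpina12. Reads that align to several places were not counted, so levels of Serpina1a, Serpina1b and Serpina1c relative to each other are uncertain.

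The sequences just before the gene starts are also alike, though not to the same degree for all copies. RefSeq gives a window of 250 bases before to 50 bases after the start (GRCm38.p6) for 7 of the 10 genes. In each of the 5 Serpina1 windows the letters GTTAAT, part of the site of the hepatocyte factor HNF1, occur once, between 16 and 78 bases before the start, and 60 bases around them are shown with these letters in capitals.
Serpina1a, chr12:103863626-103863685, minus strand: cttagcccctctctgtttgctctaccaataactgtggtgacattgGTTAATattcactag
Serpina1b, chr12:103738201-103738260, minus strand: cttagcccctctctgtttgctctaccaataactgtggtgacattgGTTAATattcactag
Serpina1c, chr12:103904963-103905022, minus strand: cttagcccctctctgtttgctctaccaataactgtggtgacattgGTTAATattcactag
Serpina1d, chr12:103773635-103773694, minus strand: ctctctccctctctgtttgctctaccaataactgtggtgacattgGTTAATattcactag
Serpina1e, chr12:103956961-103957020, minus strand: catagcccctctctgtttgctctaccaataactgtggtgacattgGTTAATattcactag
Serpina12, chr12:104044519-104044578, minus strand: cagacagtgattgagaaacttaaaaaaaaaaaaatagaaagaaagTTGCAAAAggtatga
Serpina1a, Serpina1b and Serpina1c are identical over these 60 bases, Serpina1e differs from them at 1 position and Serpina1d at 4. Serpina1a, Serpina1b, Serpina1c and Serpina1e are thus more alike here than in coding sequence. Serpina1d is less alike, at 93.3% identity with Serpina1a, Serpina1b and Serpina1c and 91.7% with Serpina1e, against 96.3% to 96.7% in coding sequence. The 60 bases were placed around letters that all 5 copies share and do not stand for the whole windows. For Serpina12, the member called higher on WTD, the capitals mark TTGCNNAA, a pattern of the C/EBP factors. GTTAAT was found on either strand in 7.1% of all 32851 RefSeq windows and in 5 of the 7 members' windows, which are copies of each other. TTGCNNAA was found in 10.8% of all windows and in those of Serpina1a, Serpina1b, Serpina1d, Serpina1e and Serpina12. TTCNNNGAA, the spaced pattern of the STAT factors, was in 8.3% of all windows and in none of the 7.

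Of the 10 genes, 8 could be measured. Serpina1d (chr12:103763594-103773592) lies on the same strand inside the annotated span of Serpina1b (chr12:103728156-103830373), and Serpina3k (chr12:104338486-104346144) lies inside Serpina3m (chr12:104338486-104394257), with which it shares its first exon. Both had 0 counts in all 42 mice. Of the 452 protein-coding genes that lie inside another gene on the same strand, 451 (99.8%) had 0 counts in every mouse, compared with 4241 of 21466 other protein-coding genes (19.8%). The zeros of Serpina1d and Serpina3k were shared with nearly all genes in that position, and no level, upper limit or difference is given for these 2 genes. All other members passed the filter on low counts in each comparison.

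Several libraries stood apart. Gene counts per mouse ran from 15661381 to 36224054. In 8 libraries, among them those of the chow-fed mice AZ2, AZ5 and AZ6, over 20% of genes at 1 to 2 CPM (a gene's counts relative to the scaled library total) in their own group had no count. The WTD-fed mouse Gen20 had a summed level of the 4 counted Serpina1 genes of 8256 CPM, whereas the other WTD-fed mice lay between 4099 and 5625 CPM. Its summed level of 8 hepatocyte markers, 104600 CPM, was also the highest of its group, followed by 67650 CPM. Alb, the albumin gene, makes up most of this marker sum. In the WTD + atorvastatin group the 4 lowest Serpina1 sums belonged to the mice numbered Gen22 to Gen25 (4609 to 5081 CPM), which also had the 4 lowest hepatocyte marker sums (58440 to 72950 CPM). Together with Gen36 (5963 CPM) and Gen28 (6222 CPM) they formed 6 mice below the widest gap of that group, and the other 10 mice lay between 7500 and 9089 CPM. Labels give no reason to regroup any mouse, and all were kept in the group the labels state.

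**Figure D1:**
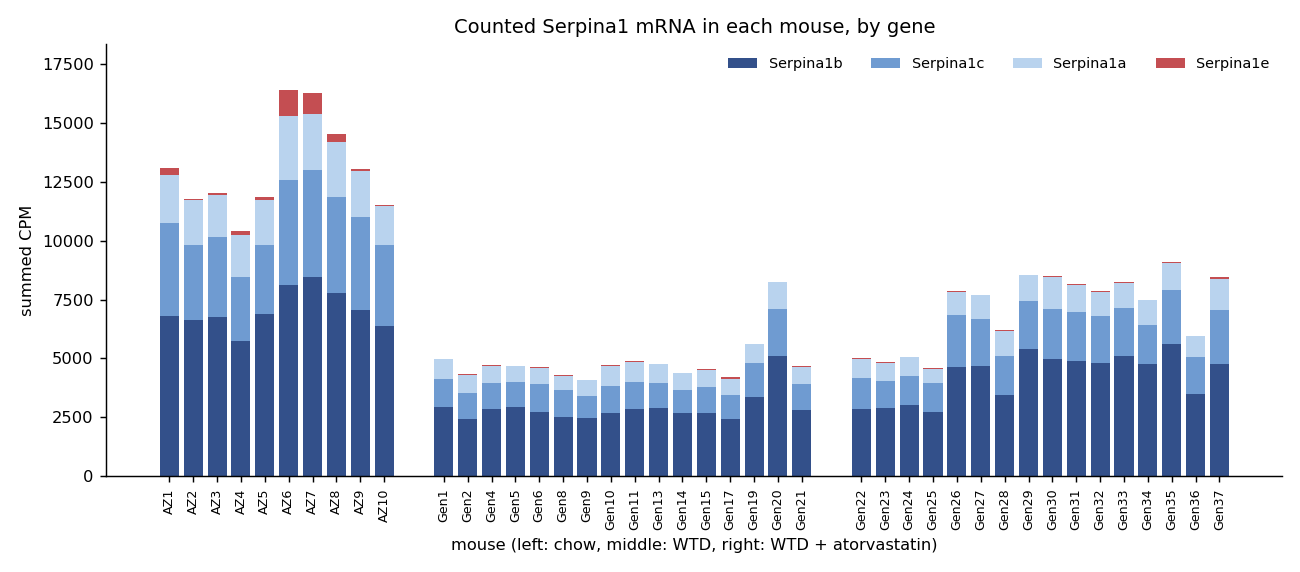
Summed CPM of Serpina1b, Serpina1c, Serpina1a and Serpina1e (stacked bars from 0) in each of the 42 mice, ordered by group and label. All WTD-fed mice lie below all chow-fed mice, Gen20 stands above the other WTD-fed mice, and Gen22 to Gen25 are the lowest mice with atorvastatin.

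Per length, Serpina1b, Serpina1c and Serpina1a had the highest levels in each group, followed by Serpina6. Here levels are CPM divided by the exon length in kilobases (RPKM). Since this length also counts the stretches that the Serpina1 copies share, where reads were not counted, the order among these copies is that of their counted reads and may differ for their RNA. Median RPKM in chow-fed mice were 2831 for Serpina1b, 2711 for Serpina1c and 1052 for Serpina1a, then 259 for Serpina6, 204 for Serpina3m, 153 for Serpina3n, 86.1 for Serpina1e and 4.83 for Serpina12. The order of neighbours held in 9 of 10 mice for Serpina1b over Serpina1c and in 10 of 10 for Serpina1c over Serpina1a and for Serpina1a over Serpina6, but only in 7 of 10 for Serpina6 over Serpina3m and 6 of 10 for Serpina3n over Serpina1e. On WTD the last place passed from Serpina12 to Serpina1e, with median RPKM of 19.2 and 15.9 and this order in 13 of 16 mice. Serpina6 and Serpina3n (164 and 163 RPKM) kept their order in 10 of 16 WTD-fed mice. With atorvastatin, Serpina12 and Serpina1e were level, at 14.7 and 14.3 RPKM, and Serpina12 was above Serpina1e in 7 of 16 mice. Using the longest transcript in place of all exons left the 24 ranks as they were.

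**Figure D2:**
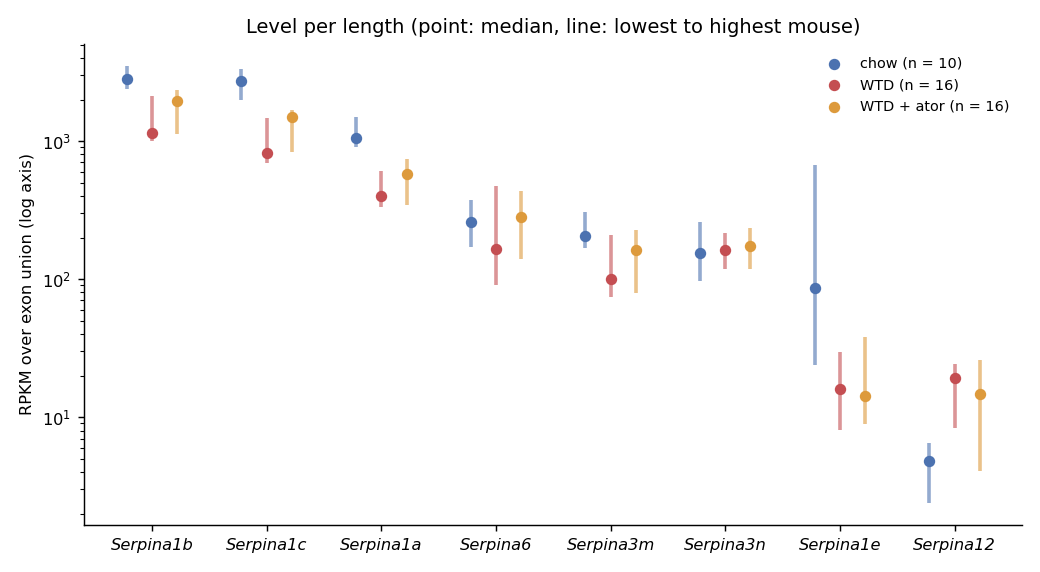
Median RPKM (points) and the range from the lowest to the highest mouse (lines) for 8 serpin genes on a log axis, in chow-fed, WTD-fed and WTD + atorvastatin mice. Serpina1b, Serpina1c and Serpina1a are highest in each group, and Serpina1e and Serpina12 exchange places between chow and WTD.

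To see what WTD did to these genes, WTD-fed mice were compared with chow-fed mice. Serpina1a, Serpina1b, Serpina1c, Serpina1e, Serpina3m and Serpina6 were lower on WTD, Serpina12 was higher, and Serpina3n did not pass the test. Thus 6 of the 8 tested members were called lower and 1 higher, at an edgeR adjusted p under 0.01. Of all 15574 tested genes, 16.0% were called lower and 17.5% higher. The median log2 fold change was -1.14 over the 8 members and 0.03 over all tested genes.

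The alpha-1-antitrypsin genes fell together. Serpina1b had a lowest, median and highest level of 5742, 6838 and 8470 CPM on chow and of 2420, 2762 and 5118 CPM on WTD. The groups did not overlap, and the log2 fold change was -1.29 (SE 0.11, edgeR adjusted p = 2e-14). For Serpina1c the 3 values were 2710, 3689 and 4544 CPM on chow and 943, 1112 and 2004 CPM on WTD, again without overlap, with a log2 fold change of -1.65 (SE 0.11, edgeR adjusted p = 9.5e-18). Serpina1a went from 1660, 1927 and 2717 CPM to 607, 735 and 1121 CPM, with no overlap and a log2 fold change of -1.40 (SE 0.09, edgeR adjusted p = 6.9e-18). In all 3 genes the highest WTD-fed mouse was Gen20, and without it the log2 fold changes were -1.36 for Serpina1b, -1.72 for Serpina1c and -1.45 for Serpina1a. Summed over Serpina1a, Serpina1b, Serpina1c and Serpina1e, where an assignment of reads to the wrong copy among these 4 has no effect, the log2 fold change was -1.43 (SE 0.11, edgeR adjusted p = 2e-16).

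**Figure D3:**
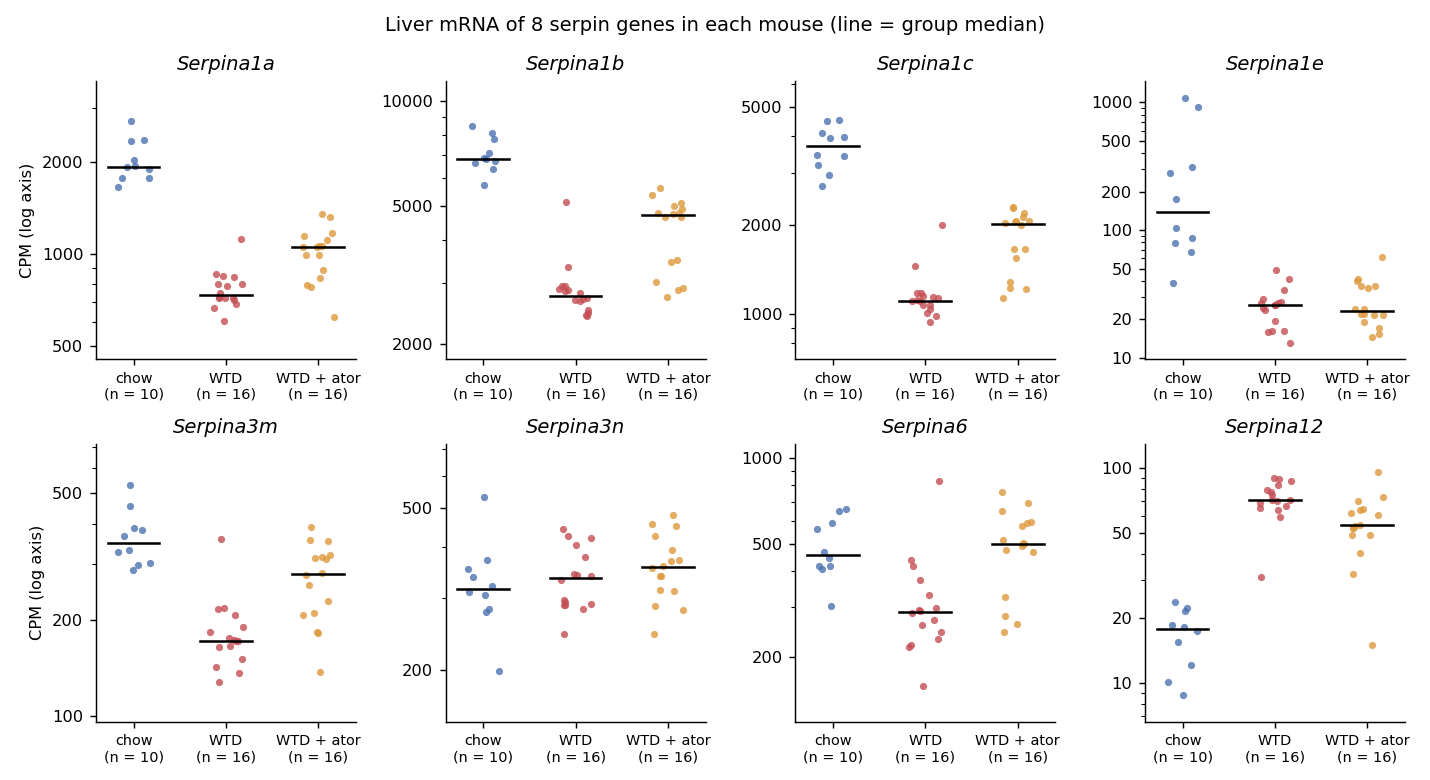
Level of 8 serpin genes in each mouse in CPM on a log axis, with a line at the group median (chow n = 10, WTD n = 16, WTD + atorvastatin n = 16). Serpina1a, Serpina1b and Serpina1c of WTD-fed mice lie below all chow-fed mice, Serpina12 lies above them, and Serpina1e ranges from 38.6 to 1084 CPM within the chow group.

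Serpina1e varied widely among chow-fed mice. Its level in the 10 chow-fed mice was 38.6 CPM in AZ2, 67.1 in AZ10, 79.8 in AZ3, 87.3 in AZ9, 103 in AZ5, 175.5 in AZ4, 278 in AZ1, 312 in AZ8, 921 in AZ7 and 1084 in AZ6. The highest mouse had 28.1 times the level of the lowest, against 1.64, 1.48 and 1.68 times for Serpina1a, Serpina1b and Serpina1c. Serpina1e made up 0.328% of the Serpina1 sum in the lowest and 6.61% in the highest chow-fed mouse. On WTD its levels were 13.1, 25.8 and 48.3 CPM (lowest, median, highest), and 14 of 16 mice lay below the lowest chow-fed mouse. The log2 fold change was -3.60 (SE 0.38, edgeR adjusted p = 2.5e-10). Without AZ6 and AZ7, which were left out after the values were seen, it was -2.46 (edgeR adjusted p = 2.3e-09). Over all mice of both groups the chow median was 5.41 times the WTD median. Both mice also led the chow group in the summed hepatocyte markers (138800 and 147200 CPM), and AZ6 is among the libraries that missed weakly expressed genes; the part of either in the Serpina1e level was not tested.

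The shares of the copies in the Serpina1 RNA are given without a test. Serpina1b took a median of 54.8% of the counted sum on chow and 59.3% on WTD. The share of Serpina1c was 28.1% and 24.0%, that of Serpina1a 15.8% and 16.1%, and that of Serpina1e 1.28% and 0.542%. These shares describe unique reads only and do not include Serpina1d.

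Among the measured members of the antichymotrypsin group, Serpina3m was lower on WTD and Serpina3n did not pass the test. Of the other tested Serpina3 genes, which are not members, Serpina3f and Serpina3g were called higher on WTD. Their log2 fold changes were 1.65 and 1.16 (edgeR adjusted p = 0.00014 and 6.3e-06), and Serpina3h and Serpina3i were not called. Serpina3m had 287, 350.4 and 531 CPM (lowest, median, highest) on chow and 128, 172.5 and 359 CPM on WTD. All WTD-fed mice but Gen20 lay below the lowest chow-fed mouse, and the log2 fold change was -0.99 (SE 0.14, edgeR adjusted p = 8.9e-08). Serpina3n had 199, 316 and 533 CPM on chow and 245, 336 and 443 CPM on WTD, and the WTD range lay inside the chow range. Its log2 fold change was 0.04 with a 95% interval of -0.18 to 0.26 (edgeR adjusted p = 0.8), so that a difference above 0.26 on the log2 scale lay outside the interval.

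Corticosteroid-binding globulin RNA was lower on WTD by a smaller margin. Serpina6 had 301, 456 and 659 CPM on chow and 159, 289 and 828 CPM on WTD, where 11 of 16 mice lay below the lowest chow-fed mouse and Gen20 lay above the highest. The log2 fold change was -0.61 (SE 0.20, edgeR adjusted p = 0.0095), close to the threshold. Leaving out 27 of the 42 mice in turn ended the call, and without Gen20 the log2 fold change was -0.77 (edgeR adjusted p = 0.00015).

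Vaspin RNA rose. Serpina12 had 8.81, 17.8 and 23.8 CPM on chow and 31.0, 71.0 and 89.6 CPM on WTD, without overlap, and the lowest WTD-fed mouse was Gen20. Its log2 fold change was 2.09 (SE 0.19, edgeR adjusted p = 3.5e-12). Of the adipocyte markers, Lep had 0 counts in all mice, and the summed level of the 5 markers was 7.78 CPM on chow and 22.2 CPM on WTD (medians), carried almost wholly by Fabp4, a fatty acid-binding protein that macrophages also make. The part of other cell types in the Serpina12 level was not tested.

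Cell type markers moved in the same comparison. All 8 hepatocyte markers (Alb, Ttr, Apob, Apoh, Tat, Cps1, Cyp2e1 and Asgr1) were called lower on WTD, and their sum had a median of 114500 CPM on chow (102200 to 147200) and 60730 CPM on WTD (45400 to 104600). Most of this sum was Alb, with medians of 91340 and 48530 CPM. The macrophage markers had 7 of 8 genes called higher and a median sum of 492 and 2613 CPM, without overlap between groups. Among them were the lysozyme gene Lyz2 (log2 fold change 3.47, edgeR adjusted p = 2.8e-23) and Cd5l (3.12, edgeR adjusted p = 4.2e-29). Of the stellate cell markers 5 of 7 were called higher (median sum 449.8 and 1781 CPM), and of the cholangiocyte markers 5 of 5 (118 and 577 CPM). In whole liver, fewer hepatocytes and less RNA of a gene per hepatocyte cannot be told apart. The part of cell makeup in the falls of the Serpina1 genes, Serpina3m and Serpina6 was not tested.

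**Figure D4:**
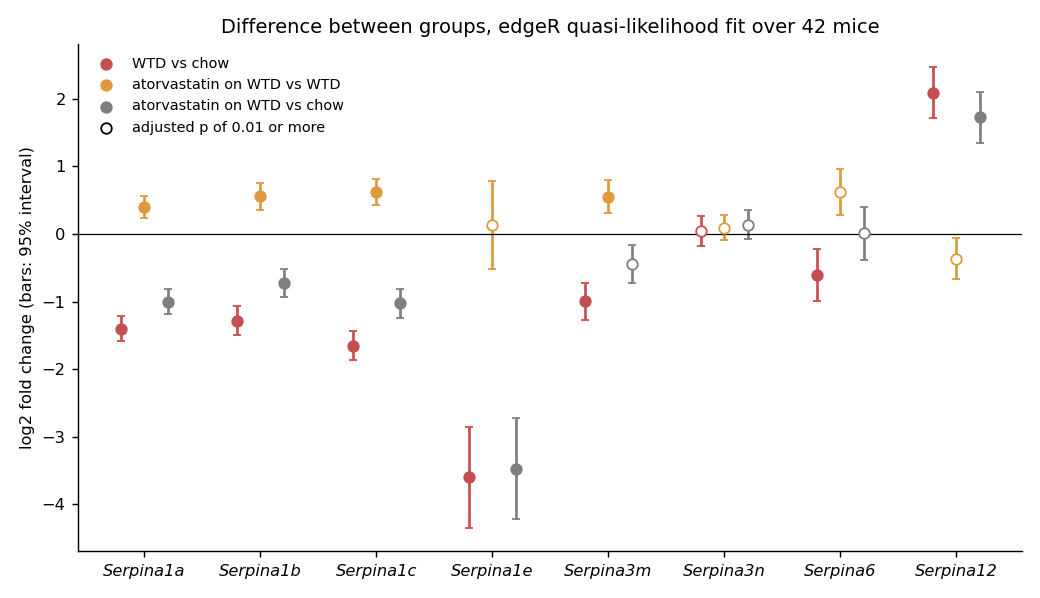
Log2 fold change of 8 serpin genes with 95% intervals in 3 comparisons, from the edgeR fit over 42 mice. Open points have an adjusted p of 0.01 or more; Serpina1a, Serpina1b, Serpina1c and Serpina3m are filled on opposite sides of 0 for WTD against chow and for atorvastatin on WTD against WTD.

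The effect of atorvastatin was read by comparing WTD + atorvastatin with WTD. Serpina1a, Serpina1b, Serpina1c and Serpina3m were higher with atorvastatin, and Serpina1e, Serpina3n, Serpina6 and Serpina12 did not pass the test. That is 4 of 8 tested members called higher and 0 called lower, whereas 4.84% of all tested genes were called higher and 2.26% lower. At an unadjusted p under 0.05 in edgeR, Serpina12 was the single member on the lower side (p = 0.022), and DESeq2 and limma-voom also called 0 members lower. The median log2 fold change was 0.47 over the members and 0.00 over all tested genes. All 4 folds were below the doubling that a log2 fold change of 1 stands for. Since this comparison and the former share the WTD-fed mice, values are given side by side and not as independent results.

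Among the antitrypsin copies, Serpina1c had a lowest, median and highest level of 1139, 2018 and 2300.0 CPM with atorvastatin, compared with 943, 1112 and 2004 CPM on WTD. Each of the 16 treated mice lay above the WTD median, 8 of them above the highest WTD-fed mouse, and the log2 fold change was 0.63 (SE 0.10, edgeR adjusted p = 2.8e-05). Serpina1b reached 2729, 4702 and 5620 CPM, and 15 of 16 treated mice lay above the WTD median (log2 fold change 0.56, SE 0.10, edgeR adjusted p = 7.5e-05). Serpina1a reached 626, 1055 and 1356 CPM, with 15 of 16 mice above the WTD median (log2 fold change 0.40, SE 0.08, edgeR adjusted p = 0.00075). The ranges of both groups overlapped in all 3 genes, and without Gen20 the log2 fold changes were 0.70 for Serpina1c, 0.63 for Serpina1b and 0.44 for Serpina1a. For the Serpina1 sum the medians were 4676 CPM on WTD and 7784 CPM with atorvastatin, with a log2 fold change of 0.55 (SE 0.09, edgeR adjusted p = 6.5e-05).

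Serpina1e did not pass the test. Its levels with atorvastatin were 14.4, 23.1 and 61.9 CPM, and only 6 of 16 treated mice lay above the WTD median. The log2 fold change was 0.13 with a 95% interval of -0.52 to 0.78 (edgeR adjusted p = 0.88). This interval includes the changes of the other 3 copies. The fit shares its spread with the chow-fed mice, among which Serpina1e varied widely. With only both WTD groups fitted, the log2 fold change was 0.12 (SE 0.19, edgeR adjusted p = 0.74). In that fit Serpina1a was at 0.39, Serpina1b at 0.55 and Serpina1c at 0.62. A difference between Serpina1e and the other copies was not tested.

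Serpina3m had 137, 280 and 392 CPM with atorvastatin against 128, 172.5 and 359 CPM on WTD, and 15 of 16 treated mice lay above the WTD median (log2 fold change 0.55, SE 0.13, edgeR adjusted p = 0.0018). Serpina3n had 245, 357.5 and 481.5 CPM, and its log2 fold change was 0.10 (95% interval -0.09 to 0.28, edgeR adjusted p = 0.62). Serpina6 had 245, 499.5 and 760.3 CPM, and 13 of 16 treated mice lay above the WTD median. Its log2 fold change of 0.62 was as large as that of Serpina1c but had a wider spread (SE 0.17, edgeR adjusted p = 0.012) and missed the threshold. Leaving out any of 6 mice brought it past the threshold, namely Gen19 and Gen20 on WTD or Gen22, Gen23, Gen24 and Gen25 with atorvastatin, and without Gen20 the log2 fold change was 0.78 (edgeR adjusted p = 0.00014). The mice Gen22 to Gen25 had the 4 lowest Serpina6 levels of the treated group (245 to 325 CPM). Serpina12 had 15.1, 54.1 and 96.1 CPM with atorvastatin and was below the WTD median in 14 of 16 mice, with a log2 fold change of -0.37 (SE 0.16, edgeR adjusted p = 0.12).

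Hepatocyte markers again moved alongside. Of the 8, 5 were called higher with atorvastatin, and the median of their sum was 101500 CPM (58440 to 125600) against 60730 CPM on WTD. Macrophage markers had 4 of 8 called lower and 1 higher (median sum 1985 against 2613 CPM), and stellate markers 3 of 7 lower (1030 against 1781 CPM). Their part in the higher Serpina1 and Serpina3m levels was not tested.

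How far treated mice stood from the healthy reference was seen by comparing WTD + atorvastatin with chow. Serpina1a, Serpina1b, Serpina1c and Serpina1e were called lower and Serpina12 higher, and Serpina3m, Serpina3n and Serpina6 did not pass. Over all tested genes, 10.7% were called lower and 14.2% higher. The log2 fold changes of the lower genes were -1.01 for Serpina1a, -0.73 for Serpina1b, -1.03 for Serpina1c and -3.47 for Serpina1e. Without AZ6 and AZ7 the value of Serpina1e was -2.33 (edgeR adjusted p = 1.8e-08). In the first 3 of these, all 16 treated mice lay below the lowest chow-fed mouse. Serpina12 stood at 1.72 on the log2 scale (edgeR adjusted p = 9.1e-10), and 15 of 16 treated mice lay above the highest chow-fed mouse, the exception being Gen28. Serpina3m had a log2 fold change of -0.44 (edgeR adjusted p = 0.012), which passed the threshold in 7 of 13 alternative analyses. For Serpina6 the log2 fold change was 0.01 (95% interval -0.38 to 0.40, edgeR adjusted p = 0.98), and the sign of a value so near 0 changed between alternatives. Serpina3n had a log2 fold change of 0.14 (95% interval -0.08 to 0.35, edgeR adjusted p = 0.37).

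Which members varied together from mouse to mouse was examined within groups, on log2 CPM. Over 42 mice with each group centred on its mean, 13 of 28 pairs had an adjusted permutation p under 0.05 (100000 two-sided permutations within groups, Benjamini-Hochberg over 28 pairs; the smallest p they can give is 1e-05). Because Gen20, the pair AZ6 and AZ7 and the 6 treated mice below the gap stood apart, values over all mice are followed by values without them, as a description. Serpina1b and Serpina1c correlated most closely, with Pearson's r of 0.92, Spearman's rho of 0.87 (adjusted permutation p = 5.6e-05 for both) and an r of 0.89 without the 2 farthest mice. Within groups r was 0.88 on chow, 0.92 on WTD and 0.94 with atorvastatin. Without AZ6 and AZ7 it was 0.77 over 8 chow-fed mice, and without Gen20 it was 0.70 over 15 WTD-fed mice. Among treated mice it was 0.89 in the 6 below the gap and 0.32 in the 10 above it. The gap was placed by the Serpina1 sum, to which both genes add most. A split there narrows the range of both genes and can lower r by itself. The values on its 2 sides therefore cannot show what the relation rests on. The part of the sequence that Serpina1b and Serpina1c share in this relation was not tested.

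**Figure D5:**
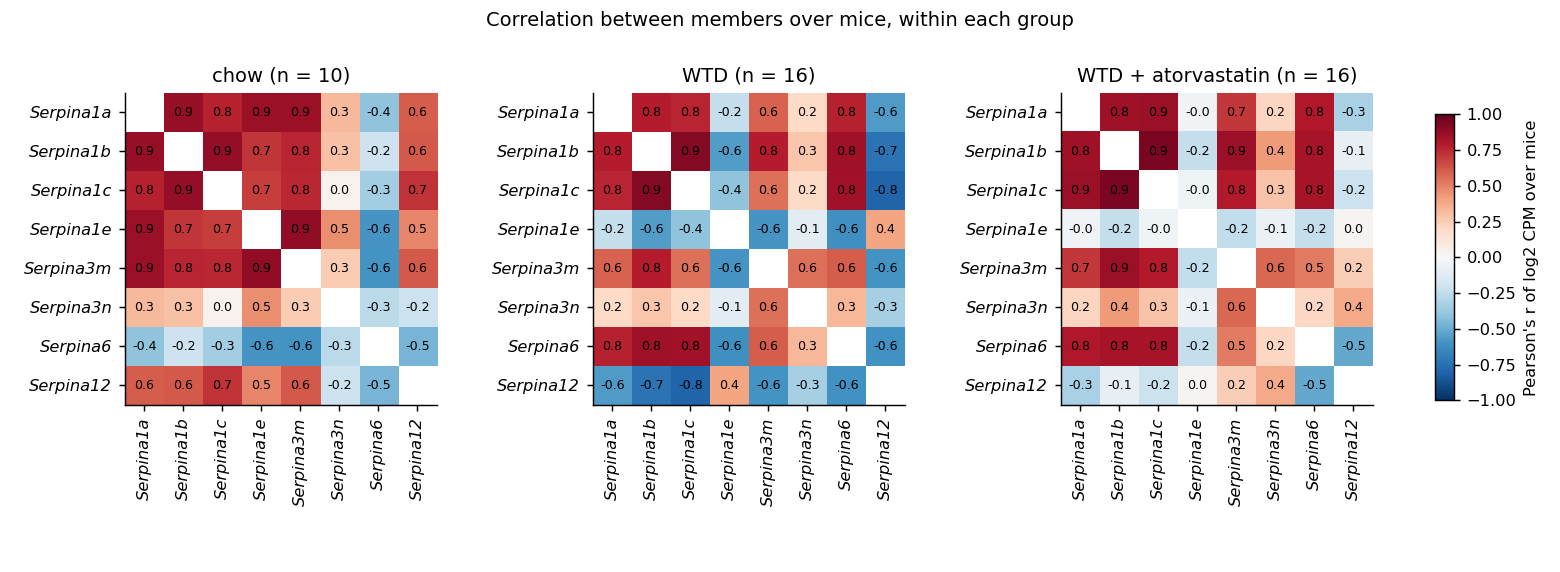
Pearson's r of log2 CPM between each pair of 8 serpin genes over mice, within chow (n = 10), WTD (n = 16) and WTD + atorvastatin (n = 16). Serpina1a, Serpina1b, Serpina1c and Serpina3m correlate positively in all 3 panels, and the signs of Serpina6 and Serpina1e with them differ between chow and the WTD groups. Without the mice that stood apart, the WTD value of Serpina1c with Serpina3m is -0.26 and that of Serpina1a with Serpina1e is 0.19.

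For Serpina6 the sign of r differed between chow and WTD. With Serpina1b its r was -0.21 on chow, 0.85 on WTD and 0.82 with atorvastatin. Without Gen20 the WTD value was 0.64, and among treated mice it was 0.92 below the gap and 0.81 above it, so that the positive relation was present in each of these subsets. With Serpina1a and Serpina1c, r on chow was -0.40 and -0.35, and on WTD 0.77 and 0.84, or 0.50 and 0.60 without Gen20. In treated mice above the gap these 2 values were 0.15 and 0.33. Whether the chow and WTD correlations differ was not tested, and 10 chow-fed mice leave the chow values imprecise.

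For Serpina1e and Serpina1a, r was 0.86 on chow (0.64 without AZ6 and AZ7), -0.23 on WTD and -0.04 with atorvastatin. Without Gen20 the WTD value was 0.19, and among treated mice it was 0.18 below the gap and 0.15 above it. The treated value of -0.04 is near 0. A split at the gap, placed by a sum that holds both genes, cannot show what its sign rests on. Serpina3m and Serpina1c had an r of 0.75, 0.55 and 0.79 in the 3 groups, but -0.26 on WTD without Gen20 and -0.31 in the 6 treated mice below the gap. With Serpina1a and Serpina1b, Serpina3m had an r of 0.05 and 0.36 on WTD without Gen20, and of -0.36 and -0.15 below the gap. In the 10 treated mice above the gap, r of Serpina3m with Serpina1a, Serpina1b and Serpina1c was positive, at 0.765, 0.646 and 0.564. On chow without AZ6 and AZ7 these values were 0.564, 0.435 and 0.522. Serpina1e and Serpina6 had an r of -0.59, -0.61 and -0.24 in the 3 groups. Without AZ6 and AZ7 the chow value was -0.79, and without Gen20 the WTD value was -0.45. Among treated mice r was -0.56 in the 10 above the gap, but 0.17 in the 6 below it. Serpina12 and Serpina6 correlated at -0.46 on chow, -0.60 on WTD and -0.51 with atorvastatin, but at 0.09 on WTD without Gen20, so that the WTD value rested on that mouse. Over all 42 mice Serpina3n was closest to Serpina3m among the members, with an r of 0.26, 0.55 and 0.58 within the 3 groups. Without AZ6 and AZ7 the chow value was 0.05, without Gen20 the WTD value was 0.47, and among treated mice it was 0.61 below the gap and 0.38 above it.

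Genes other than the members were ranked by the same centred correlation over 42 mice. The ranking covered 13329 genes with a median of at least 1 CPM and is a description without a test. Nearest to Serpina1b were Alb, the albumin gene (r = 0.93), Apoh, an abundant plasma glycoprotein (0.93), and Cyp2b9 (0.92). Serpina1a and Serpina1c shared Afm, a plasma vitamin E carrier (0.87 and 0.88), and Apoh (0.84 and 0.87), with Rbp4 (0.84), the retinol carrier, and Alb (0.87) as the remaining entries. Serpina3m was nearest to Alb (0.87), Cdo1 (0.84) and Fads1 (0.83), and Serpina6 had Upp2 (0.87) and Hoga1 (0.84) among its nearest. For Serpina3n the nearest were Irgm1, an interferon-induced GTPase (0.69), Nub1 (0.68) and the complement gene C4b (0.68). The nearest to Serpina1e were Kdelr3 (0.68), St8sia4 (0.67) and Ckap4 (0.65), whose r with atorvastatin was only 0.08, 0.09 and 0.26. Serpina12 had Capns1 (0.69), Banf1 (0.68) and Nbeal2 (0.64), of which Banf1 and Nbeal2 had an r of only 0.35 and 0.15 on WTD. Some other neighbours were also weak in 1 group. Nub1 with Serpina3n had an r of 0.37 on WTD, and Cdo1 and Fads1 with Serpina3m had 0.39 and 0.31 on chow. The same mice that stood apart enter all of these values.

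Genes around the members' known roles were counted from lists chosen by function. For reference, 17.5% of all tested genes were called higher and 16.0% lower on WTD, and 4.84% higher and 2.26% lower with atorvastatin. Of 11 tested genes for proteins that hepatocytes secrete, 11 were called lower on WTD (median log2 fold change -0.90) and 6 higher with atorvastatin (0.29), among them transthyretin (Ttr, -1.29 and 0.47) and Fetub (-1.29 and 0.29). Alb, Ttr and Apoh are also among the hepatocyte markers above. The acute-phase list split, with 9 of 22 genes called higher and 9 lower on WTD, and 5 called lower with atorvastatin. Serum amyloid gene Saa3 was at 2.08 on WTD against chow and at -1.08 with atorvastatin, Hp, the haemoglobin scavenger, at 0.73 and -0.50, and Lcn2, an iron-siderophore binder, at 3.95 and -1.27. Saa1 was at 1.69 on WTD and at -0.76 with atorvastatin, with an edgeR adjusted p = 0.01 that lay just above the threshold. Saa3, Hp, Lcn2 and Saa1 are all among the 9 called higher on WTD, as is Cp. Cp was at 0.73 on WTD but at -0.12 with atorvastatin (edgeR adjusted p = 0.23). Among the 9 called lower on WTD were Saa4 (-0.81), Crp (-0.57) and Fgg (-0.56), which were at 0.15, 0.08 and 0.18 with atorvastatin and not called there. Serpina3n, itself known as an acute-phase gene, had log2 fold changes of 0.04 and 0.10 in these comparisons.

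Of 14 genes for hepatocyte transcription factors and cytokine signalling, 3 were called higher and 5 lower on WTD, and 3 higher and 1 lower with atorvastatin. Over all tested genes, 17.5% were called higher and 16.0% lower on WTD, so that the count of higher genes was near that share. Hnf4a, a master factor of hepatocytes, was at -0.31 (edgeR adjusted p = 0.00079) and 0.33 (edgeR adjusted p = 0.00064). Lifr, the receptor of leukaemia inhibitory factor, was at -1.78 and 0.54, Osmr, the oncostatin M receptor, at 2.01 and -0.65 (the latter with an edgeR adjusted p = 0.084), and Cebpd at 1.27 and -0.84. In the endoplasmic reticulum, where serpins fold, 7 of 11 genes were called lower on WTD and 3 higher with atorvastatin. Sel1l, of the degradation complex that removes misfolded proteins, was at -0.70 and 0.49, Edem1, of the same pathway, at -0.44 and 0.32, and Mcfd2, of the cargo receptor for export, at -0.44 and 0.10 (the latter with an edgeR adjusted p = 0.28).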

How the data were processed

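Liver RNA of 42 mice was sequenced as stranded read pairs. The authors aligned with STAR 2.5 to GRCm38 (GENCODE vM19) after Trimmomatic, and the deposited values are raw counts per gene from HTSeq 0.6.1p1; the authors tested with DESeq2. The table of all mice matched the 42 single tables. Symbols and coordinates came from GENCODE vM21 of the same build (54409 of 54446 identifiers matched). Summary lines were left out (no feature 2.00% to 2.78%, ambiguous 5.43% to 6.57%, not unique 4.07% to 5.36% of read pairs).

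All 42 mice and all genes entered 1 edgeR 4.0.16 quasi-likelihood fit (R 4.3.3; filterByExpr, minimum count 10; TMM; robust), with Benjamini-Hochberg adjusted p under 0.01 called. CPM use TMM library sizes. The script was tested on simulated data. Sequences were aligned with MAFFT 7.526. Alternatives were limma-voom 3.58.1, DESeq2 1.42.0, other scalings, filters and sample sets, and each mouse left out.

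Members and lists were chosen with earlier results of these data known. Named genes are all members, per list the 2 genes with the smallest p in the WTD and in the atorvastatin comparison, Saa1 and Hp, and the 3 genes nearest to each member. Not every gene this rule allows is printed, and a few other genes of the lists are named beside them.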

Additional observations from a re-analysis of the deposited data

Results flagged for a closer look

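Serpina3n had 1 library far from its group. The chow-fed mouse AZ5 had 533.1 CPM, whereas the next highest chow-fed mouse had 371.5 CPM. This gap was 0.483 of the whole range of the 10 chow-fed mice, above Dixon's 95% critical value for groups of this size. Such a test was made for 8 members in the chow group only, since larger groups were not tested, and chance alone marks about 1 group in 20. AZ5 is also among the 8 libraries that missed over 20% of weakly expressed genes (45.1% in AZ5). Its part in the value was not tested.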

How the results depend on the processing

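Up to 13 alternatives were run for each member, of which the one without AZ6 and AZ7 was chosen after seeing the data. The calls of Serpina1a, Serpina1b, Serpina1c and Serpina1e in all 3 comparisons, of Serpina3m and Serpina12 against chow on WTD, of Serpina3m with atorvastatin and of Serpina12 with atorvastatin against chow were the same in each alternative that gave them a value, the added fold threshold aside, and with each mouse left out; Serpina3n was called in no comparison. Serpina6 was called lower on WTD in 5 of 13 (adjusted p 0.00017 to 0.053) and higher with atorvastatin in 3 of 13 (3.1e-06 to 0.043), and Serpina3m against chow with atorvastatin in 7 of 13 (0.0043 to 0.1). With the Serpina1 copies summed, 4, 2 and 2 features were called in the 3 comparisons, because fewer features were counted. With an added threshold of 1 on the size of the log2 fold change, 0 members were called for atorvastatin against WTD. Leaving out each mouse gave 6 to 7, 4 to 5 and 5 to 6 members. Log2 fold changes near 0 changed sign. Serpina1e with atorvastatin was at -0.013 with the share of missed weak genes as a covariate. Serpina6 with atorvastatin against chow was at -0.017 with upper-quartile scaling, -0.012 with only both groups compared, -0.026 without AZ6 and AZ7, and -0.051 to 0.065 without single mice. Serpina3n on WTD ranged from -0.023 to 0.142 without single mice. The cause was not tested. The count of 13 pairs was the same without the 8 libraries that missed weak genes and with RLE scaling, both chosen after seeing the data. No paired analysis was possible because each mouse belongs to 1 group and mouse numbers only name mice. Depth bears most on Serpina1e and Serpina12, the members with the fewest counts (at least 278 and 199 per mouse).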

Other observations

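Other serpins did not share a direction. Of 9 tested genes of the same clade outside the members, 3 were called higher and 3 lower on WTD. Over all tested genes, 17.5% were called higher and 16.0% lower on WTD, and 4.84% higher and 2.26% lower with atorvastatin. Agt, which encodes angiotensinogen, fell from a median of 1378 CPM on chow to 537 CPM on WTD (log2 fold change -1.31, edgeR adjusted p = 6.5e-20) and rose with atorvastatin (0.31, edgeR adjusted p = 0.0011). Serpina7, the thyroxine-binding globulin gene, went the other way, with 64.4 CPM on chow, 170 CPM on WTD and 86.5 CPM with atorvastatin (1.34 and -0.77, edgeR adjusted p = 8.1e-06 and 0.0056). Serpina3g rose on WTD (1.16, edgeR adjusted p = 6.3e-06). Of 14 serpins outside the clade, 6 were called higher and 5 lower on WTD, and 3 higher and 4 lower with atorvastatin. Serpinc1, the antithrombin gene, was at -0.78 and 0.41, Serpinf2, the antiplasmin gene, at -0.78 and 0.22 (the latter with an edgeR adjusted p = 0.027), and the intracellular Serpinb6a at 2.12 and -0.94.

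The ligand side of Serpina6 was counted in 10 glucocorticoid genes, of which 2 were called higher and 5 lower on WTD and 2 higher with atorvastatin. Over all tested genes the shares were 17.5% higher and 16.0% lower on WTD and 4.84% higher with atorvastatin, so that the count of higher genes on WTD was near that of all genes. Hsd11b1, which regenerates active glucocorticoid, had medians of 593, 236 and 501 CPM on chow, WTD and WTD + atorvastatin (log2 fold changes -1.19 and 0.81). Tat, a classical glucocorticoid-responsive gene and also a hepatocyte marker, had 1151, 502 and 794 CPM (-1.19 and 0.75). Proteases that the members are known to inhibit were scarce, as 5 of 10 were tested and only Klkb1, the plasma kallikrein gene made by hepatocytes, was called (-0.78 on WTD, edgeR adjusted p = 9.1e-10). Neutrophil markers had a median sum of 10.8 CPM on chow and 27.0 CPM on WTD. Most of it came from Csf3r (medians of 7.26 and 18.1 CPM), and only 3 of the 7 markers were tested. Endothelial markers had a median sum of 281 and 255 CPM. Of these 6, Lyve1 and Cdh5 were called higher on WTD, and Kdr and Clec4g lower.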
